A study of Mus musculus with 2 samples.

Results

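A set of 10 genes for receptors of vasoactive ligands and for natriuretic peptide signalling were followed in the embryonic mouse ureter: Htr2b, Avpr1a, Npr1, Npr2, Npr3, Nppc, Ednra, Ednrb, Agtr1a and Agtr2. They carried 11 of the 39429 non-control probes on the array. Of them, Htr2b, Avpr1a and Npr3 were chosen by their higher ratios and Nppc by its lower ratio on both arrays, with no stated threshold, and the other 6 as members of the same families. The ratios of these 4 are therefore given as a description, with no test. All 10 genes matched the RefSeq symbol of their probe's accession, and 9 passed the detection filter among the 20507 genes tested.

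The arrays compared RNA from ureters of NMRI embryos at E14.5, as log2 ratios of Gata2cKO over control. Gata2cKO embryos were Tbx18(cre/+);Gata2(fl/fl), with 2 floxed Gata2 alleles and 1 Tbx18 allele making Cre recombinase, which restricts recombination to cells with a history of Tbx18 expression, mainly the mesenchyme around the ureter. Control embryos were Tbx18(+/+);Gata2(fl/?), so they lacked Cre and carried 1 floxed Gata2 allele beside an allele that the label does not name. All groups thus shared at least 1 floxed allele and the NMRI background. Array 1 held female RNA, with the control in Alexa Fluor 555 and the Gata2cKO RNA in Alexa Fluor 647. Array 2 held male RNA with the dyes exchanged, so an effect of sex cannot be told apart from one of the dyes. The heterozygous Tbx18 allele and Cre were present in Gata2cKO embryos alone and cannot be told apart from the loss of Gata2. The number of embryos behind an RNA is not known here. Nothing states that the RNAs came from separate litters, so the p-values measure only the spread between these arrays and a prior from all genes. In whole ureters, fewer cells of a type and less RNA per cell cannot be told apart.

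Contraction of smooth muscle is set by ligands that act on receptors in its membrane. Serotonin, vasopressin, endothelin and angiotensin II act largely through receptors coupled to Gq proteins, which release calcium inside the cell, whereas natriuretic peptides act through receptors that are themselves guanylyl cyclases and raise cGMP, which relaxes the muscle. C-type natriuretic peptide, the product of Nppc, signals through the cyclase encoded by Npr2, and the receptor encoded by Npr3 lacks the cyclase part and clears these peptides by uptake. The embryonic ureter acquires its smooth muscle coat from mesenchyme beneath the urothelium and begins peristalsis before birth.

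The upstream sequences of the highest genes, Htr2b and Avpr1a, and of Nppc, chosen for its low ratio, are shown because Gata2 encodes a factor that binds GATA motifs. Each is the 250 bases before the RefSeq start on the gene's own strand (GRCm38.p6), and capitals mark any match to a GATA motif (AGATAA, its variant AGATAG, the form TGATAA, or its variant TGATAG, on either strand), to TATAAA or to the CArG box, which binds serum response factor. The Htr2b sequence lies at chr1:86111981-86112230 on the minus strand, that of Avpr1a at chr10:122448249-122448498 on the plus strand and that of Nppc at chr1:86670574-86670823 on the minus strand.
Htr2b: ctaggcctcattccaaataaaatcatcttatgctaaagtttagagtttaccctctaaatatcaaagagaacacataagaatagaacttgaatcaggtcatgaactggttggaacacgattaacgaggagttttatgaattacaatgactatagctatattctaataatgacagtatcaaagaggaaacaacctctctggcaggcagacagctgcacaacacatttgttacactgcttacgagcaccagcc
Avpr1a: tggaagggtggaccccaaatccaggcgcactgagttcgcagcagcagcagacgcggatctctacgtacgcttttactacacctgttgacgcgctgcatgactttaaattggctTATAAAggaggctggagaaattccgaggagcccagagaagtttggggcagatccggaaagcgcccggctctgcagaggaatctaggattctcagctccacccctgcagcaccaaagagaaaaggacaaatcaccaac
Nppc: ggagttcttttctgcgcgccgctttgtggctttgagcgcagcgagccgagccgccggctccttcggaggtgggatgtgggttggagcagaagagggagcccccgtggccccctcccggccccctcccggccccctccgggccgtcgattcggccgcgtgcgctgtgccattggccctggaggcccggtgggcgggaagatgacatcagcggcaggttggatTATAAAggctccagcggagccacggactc

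The RefSeq promoter table held 9 of the 10 genes. None of these 9 upstream sequences had a GATA match on either strand (0 of 9), against 26.5% of the 32841 sequences of the same length searched. TATAAA on either strand occurred in 2 of the 9, Avpr1a and Nppc, against 12.4% of all, with its first base 137 bases before the start in Avpr1a and 29 bases before it in Nppc. The search for TATAAA was added after these sequences had been seen. No CArG box was found in any of the 9, against 1.47% of all. The Htr2b sequence was AT-rich (37.6% G and C, a share below which 7.90% of all sequences lay) and that of Nppc GC-rich (69.2%, above 89.6% of all), with a median of 52.4% over the table. Npr3 (38.8%) and Agtr2 (38.4%) resembled Htr2b in this respect, while Npr1 (70.4%) and Npr2 (64.4%) lay near Nppc. These matches describe the letters of these windows alone.

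On the arrays, the median mean spot signal was 433 and 428 in the 555 channel and 754 on both in the 647 channel, and the share of non-control spots detected per channel ran from 66.0% to 69.4%. Gata2 was at log2 ratios of 0.33 and 0.54 and Tbx18 at 0.65 and 0.15 on arrays 1 and 2 (adjusted p = 0.410 and 0.660 by limma), so neither checked the labels, and each direction is written for the RNA labelled Gata2cKO. A probe outside the deleted part of Gata2 would check nothing, and which part that is was not given in the sources used here. Among all genes, 18 passed an adjusted p of 0.05 by limma, 9 higher and 9 lower, or 0.0878%. Of all genes tested, 0.273% were at least 1.5-fold higher and 0.439% at least 1.5-fold lower on both arrays, and 53.2% had the same sign on both. Of the 9 members tested, 3 were at least 1.5-fold higher and 2 at least 1.5-fold lower on both arrays, and 8 had the same sign on both. The selection used this contrast, so nothing is read from these shares.

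Of the receptors for contractile ligands, Htr2b, which encodes the serotonin receptor 5-HT2B, had the highest ratio. Its only probe lies at chr1:87995712-87995771 on the minus strand (mm9). On array 1 its mean spot signal was 564 in the control (555) and 2742 in the Gata2cKO RNA (647). On array 2 it was 762 in the control (647) and 1453 in the Gata2cKO RNA (555), so the Gata2cKO channel was the brighter one in either dye. After loess the log2 ratios were 1.45 and 1.74, a mean of 1.60 ± 0.205 (SD, n = 2), or 3.03-fold. By mean ratio Htr2b stood at rank 3 from the top of the 20507 genes.

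Avpr1a, which encodes the vasopressin receptor V1a, stood at rank 5. Its probe lies at chr10:121890135-121890194 on the plus strand (mm9). Mean spot signals were 917 in the control and 4015 in the Gata2cKO RNA on array 1, and 1687 and 3106 on array 2. The log2 ratios were 1.31 and 1.70, a mean of 1.5 ± 0.275 (SD, n = 2), or 2.84-fold. Both receptors were chosen for higher ratios on both arrays, so higher Gata2cKO levels follow from the choice. Normalized log2 levels of Htr2b were 9.58 and 9.18 in the controls and 11.03 and 10.92 in the Gata2cKO RNA. Those of Avpr1a were 10.27 and 10.32 in the controls and 11.57 and 12.02 in the Gata2cKO RNA. Levels of different probes are not comparable with one another.

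**Figure D1:**
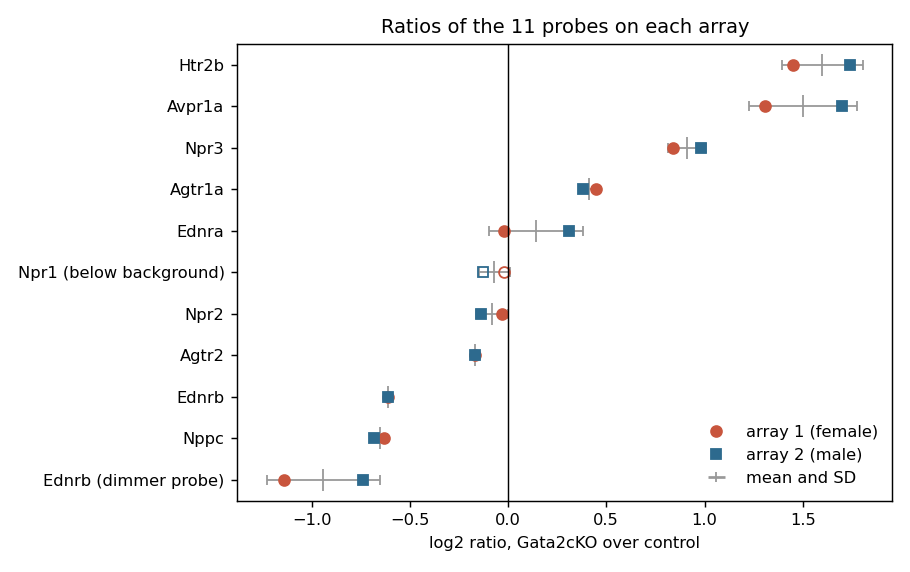
Log2 ratio of Gata2cKO over control (horizontal axis) for each of the 11 probes of the 10 genes (vertical axis), with a circle for array 1 (female), a square for array 2 (male), and the mean and SD of the 2 arrays in grey. Htr2b and Avpr1a lie at 1.60 and 1.5 and both Ednrb probes and Nppc below -0.6; open symbols mark Npr1, which was not well above background.

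Of the endothelin receptor genes, Ednrb was lower on both arrays, whereas Ednra had no settled sign, and the difference between them was not tested. Ednra, which encodes the receptor that mediates contraction of smooth muscle, had a probe at chr8:80186985-80187044 on the minus strand (mm9), and its log2 ratios were -0.02 on array 1 and 0.31 on array 2 (mean 0.14 ± 0.239, SD, n = 2; adjusted p = 0.893 by limma). Its levels overlapped between the groups, with controls at 15.48 and 15.31 and the Gata2cKO RNA at 15.45 and 15.62. Ednrb, a receptor gene of endothelium and of neural crest cells, was lower by both of its probes.

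The brighter Ednrb probe, at chr14:104214484-104214543 on the minus strand (mm9), gave log2 ratios of -0.61 and -0.61 (mean -0.61 ± 0.000117, SD, n = 2; adjusted p = 0.197 by limma), or 1.52-fold lower. Mean spot signals were 11321 in the control and 13371 in the Gata2cKO RNA on array 1, and 20906 and 7463 on array 2, so the raw order of the channels changed and the sign on array 1 came with the normalization. Its control levels were 13.88 and 13.93 and its Gata2cKO levels 13.27 and 13.32. The 2 arrays lay closer together for this gene than for 99.9% of all genes, and a spread this small from 2 arrays is itself imprecise. With a trended and robust variance, which ties each gene's spread to that of genes of like brightness, Ednrb passed (adjusted p = 0.00747 by limma). It was 1 of 375 among the 20507 genes that passed under that setting, against 18 as reported. Over the ways of processing tried its adjusted p ranged from 0.00747 to 1.0. The dimmer probe, 6.39 kb away at chr14:104220870-104220929, gave another reading of the gene, -1.14 and -0.74 (mean -0.94 ± 0.287, SD, n = 2), or 1.92-fold lower. Its mean spot signals were 4613 in the control and 3676 in the Gata2cKO RNA on array 1, and 6155 and 2069.9 on array 2. For this probe the control channel was thus the brighter one in either dye. Its sequence is shown so that the second reading can be located.
Ednrb, dimmer probe: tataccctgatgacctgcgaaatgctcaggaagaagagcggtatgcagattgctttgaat

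Of the angiotensin receptor genes, Agtr1a encodes the Gq-coupled receptor through which angiotensin II contracts vessels, and its probe lay at chr13:30474638-30474697 on the plus strand (mm9). Its log2 ratios were 0.45 and 0.38 (mean 0.41 ± 0.0465, SD, n = 2; adjusted p = 0.390 by limma), or 1.33-fold. Mean spot signals were 649 in the control and 1540.4 in the Gata2cKO RNA on array 1, and 1097 and 816 on array 2, so the positive sign on array 2 came with the normalization. Control levels were 9.76 and 9.71 and Gata2cKO levels 10.20 and 10.09. Its near-identical relative Agtr1b was at 0.41 and 0.31 (mean 0.36 ± 0.0713, SD, n = 2; adjusted p = 0.492), and 22 of the 60 bases of the probes of these genes matched in their best ungapped alignment, though whether either probe also binds the other transcript was not tested.

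Agtr2 encodes the second angiotensin receptor, which is abundant in fetal mesenchyme and has been linked to malformations of the urinary tract. Its probe lies at chrX:21065564-21065623 on the plus strand (mm9). Log2 ratios were -0.17 on both arrays (SD 0.000707, n = 2; adjusted p = 0.820 by limma), with controls at 13.75 and 13.80 and the Gata2cKO RNA at 13.58 and 13.63. In the authors' deposited table the columns of the 2 arrays had opposite signs for Agtr2, at log2 values of 0.17 and -1.0.

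**Figure D2:**
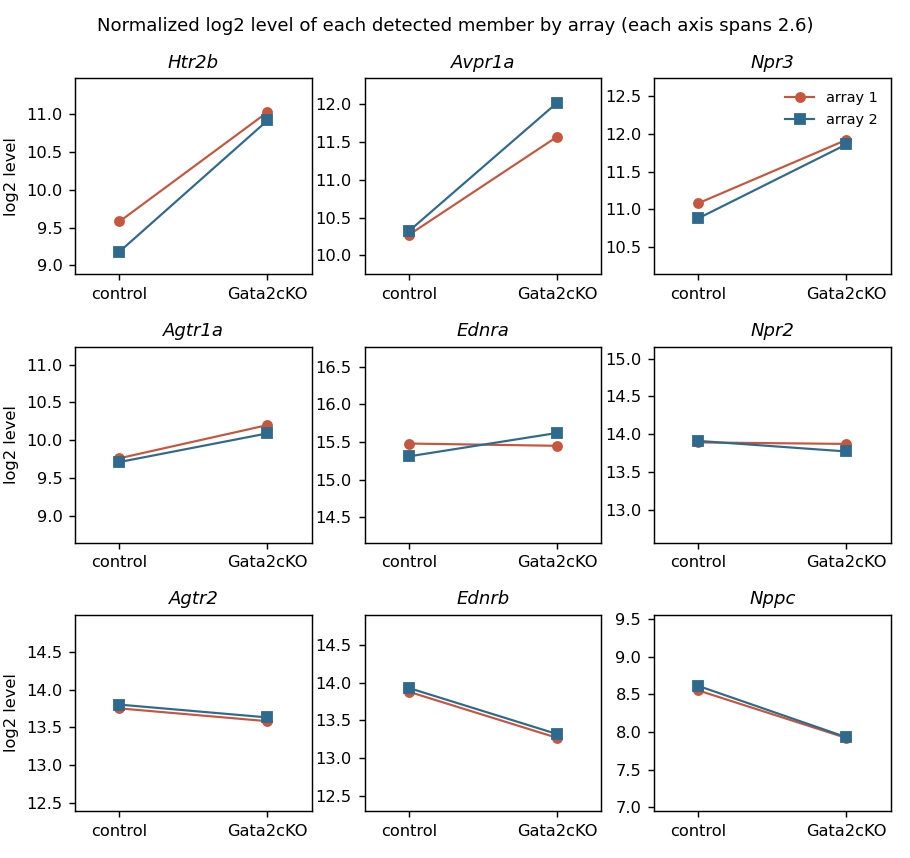
Normalized log2 level (vertical axes, each spanning 2.6) of the 9 detected genes in the control and Gata2cKO channels, with a line per array. The lines of Htr2b, Avpr1a, Npr3 and Agtr1a slope up on both arrays. Those of Nppc and Ednrb slope down, and those of Agtr2 and Npr2 do so less steeply. The 2 lines cross for Ednra and for Npr2.

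Among the natriuretic peptide genes, the clearance receptor and its ligand had ratios of opposite sign, the directions for which they were chosen. Npr3, the clearance receptor gene, had a probe at chr15:11769937-11769996 on the minus strand (mm9). Its mean spot signals were 1628 in the control and 5132 in the Gata2cKO RNA on array 1, and 2499 and 2768 on array 2. The log2 ratios were 0.84 and 0.98, a mean of 0.91 ± 0.0971 (SD, n = 2), or 1.88-fold, at rank 36 from the top.

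Nppc, which encodes C-type natriuretic peptide, was read by a dim probe that was well above background in all 4 channels. The probe lies at chr1:88563020-88563079 on the minus strand (mm9). Mean spot signals were 278 in the control and 302 in the Gata2cKO RNA on array 1, against local backgrounds of 34 and 65, and 493 and 179.9 on array 2, against 67 and 38.5. As for the brighter Ednrb probe, the raw order of the channels changed between the arrays and the sign on array 1 came with the normalization. After it the log2 ratios were -0.63 and -0.68, a mean of -0.65 ± 0.0336 (SD, n = 2), or 1.57-fold lower, at rank 126 from the bottom. The offset of 50 added to both channels shrinks the ratio of so dim a probe, and the mean was -0.79 with an offset of 0. It was -1.0 with Agilent's processed signals, which differ in other steps too.

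Of the cyclase receptor genes, Npr2 could be tested and Npr1 could not. Npr2, the receptor for C-type natriuretic peptide, had a probe at chr4:43664035-43664094 on the plus strand (mm9). Its log2 ratios were -0.03 and -0.14 (mean -0.08 ± 0.0820, SD, n = 2; adjusted p = 0.950 by limma), with controls at 13.89 and 13.91 and the Gata2cKO RNA at 13.87 and 13.77. Npr1, the receptor for atrial and B-type natriuretic peptides, was not well above background in any of the 4 channels, so it has no fold and was not tested. Its mean spot signals were 62.1 and 121 in the controls and 109 and 66.6 in the Gata2cKO RNA, against local backgrounds of 33 and 64 and of 68 and 32.5. The Npr1 probe covers a genomic span of 494 bases at chr3:90259171-90259664 on the minus strand (mm9) with a sequence of 60 bases, so its match to the genome has a gap. It is shown because it is the one member without a level.
Npr1 probe: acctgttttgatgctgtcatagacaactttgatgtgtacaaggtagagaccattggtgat

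Of the 5 tested genes chosen by family (Agtr1a, Agtr2, Ednra, Ednrb and Npr2), 0 passed an adjusted p of 0.05 by limma, with adjusted p from 0.197 to 0.950. Unadjusted, 2 of them were under 0.05, Ednrb (0.00139) and Agtr1a (0.00863), against 7.17% of all genes tested.

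By position, Htr2b, chosen for a high ratio, and Nppc, chosen for a low ratio, lie on the same chromosome, with probes 567 kb apart. Between the 2 probes lay 10 genes or transcripts that were tested, among them Psmd1, Ncl, Ptma and Pde6d. Their mean log2 ratios ran from -0.11 to 0.23 with a median of 0.00. None was at least 1.5-fold in either direction on both arrays (0 of 10), and 0 passed by limma, with 0 at an unadjusted p under 0.05. Ptma differed most between the arrays, at 0.58 and -0.47.

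Likeness was measured as the Euclidean distance between the pairs of log2 ratios on the 2 arrays, over all genes with a proper symbol other than the members themselves. The genes closest to Htr2b were Cntfr (distance 0.167), Lrriq1 (0.174) and Alx1 (0.460), and the same names came closest to Avpr1a, at 0.219, 0.169 and 0.393. Closest to Npr3 were Nell1 (0.0563), Lix1 (0.0820) and Megf10 (0.124). Closest to Nppc were Cibar2 (0.0250), Tmeff2 (0.0389) and Ndufa4l2 (0.0437), among 82 genes within a distance of 0.25, against 2 for Htr2b. With 2 arrays such likeness rests on a pair of values per gene.

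The other genes of these pathways were taken from 7 lists holding 128 genes, of which 127 were on the array and 96 were tested. Of these 96, Chrm3 and Htr5b passed the filter through the control channels alone, so a lower ratio was favoured for them, and they are included in the counts that follow. By limma 0 rose and 0 fell at an adjusted p of 0.05, the lowest adjusted p being 0.0677. At an unadjusted p under 0.05 there were 23 (24.0%, 10 higher and 13 lower), against 7.17% of all genes. At least 1.5-fold on both arrays were 1 higher, Enpep, and 1 lower, Rgs4. The same sign on both arrays was found for 67 (69.8%, against 53.2% of all), and the median mean log2 ratio was -0.01, against 0.00 over all genes. The lists were chosen with earlier results of these data known, so nothing is read from these shares. Counts by direction in the lists below have no share over all genes beside them, so no lean is read from them.

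Of 19 listed serotonin genes other than Htr2b, 8 were tested, 0 passed, and 4 were lower and 0 higher on both arrays (median -0.13). One of the 4, Htr5b, was not well above background in either Gata2cKO channel. Tph1, the enzyme that commits tryptophan to serotonin outside the brain, was at -0.72 and -0.55 (mean -0.64 ± 0.122, SD, n = 2; adjusted p = 0.197), and Ddc, the next enzyme and one that catecholamine cells also use, at -0.75 and -0.20 (adjusted p = 0.580). A further Ddc probe gave -1.07 and -0.78. The ion channel receptor gene Htr3a was at -0.43 and -0.53 (adjusted p = 0.308), Maoa, which breaks serotonin down, at -0.27 and 0.34, its relative Maob at -0.05 and 0.20, and the transporter gene Slc6a4 at 0.12 and -0.05. Of the other receptor genes, Htr2a and Htr2c did not pass the filter, with 1 Htr2c probe well above background in 1 of the 4 channels.

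In the vasopressin and oxytocin list 3 of 5 were tested and 0 passed. The ligand gene Avp was not well above background, Oxt was at -0.06 and -0.08, the kidney receptor gene Avpr2 at 0.10 and 0.05, and the oxytocin receptor gene Oxtr at -0.48 and 0.41. In the endothelin list 4 of 6 were tested, 0 passed and 0 reached an unadjusted p of 0.05. The ligand gene Edn1 was at 0.12 and 0.01. Edn2 and Edn3, each well above background in 1 of the 4 channels, did not pass the filter. The converting enzyme genes Ece1 and Ece2 were at means of 0.01 and 0.20. Kel, whose product also cleaves endothelin precursors, was at 0.19 and -0.34.

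The renin-angiotensin list had 10 of 12 genes tested, 0 passing and a median of 0.12. Enpep, aminopeptidase A, which trims angiotensin II, was at 0.87 and 0.79 (mean 0.83 ± 0.0567, SD, n = 2; adjusted p = 0.0887). Cma1, the mast cell chymase that can form angiotensin II, was at -0.20 and -1.40 (mean -0.80 ± 0.850, SD, n = 2; adjusted p = 0.600), so its arrays differed by more than the mean. In the authors' deposited table the values of Cma1 were -2.29 and -2.17. The precursor gene Agt was at 0.48 and 0.22 (adjusted p = 0.597), Ren1 at -0.20 and -0.31 (adjusted p = 0.703) and Ace at 0.06 and -0.01. Lnpep, an aminopeptidase that binds an angiotensin fragment and cleaves vasopressin and oxytocin, was at 0.09 and 0.52.

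The list of natriuretic peptides and cGMP had 15 of 19 genes tested, 0 passing, 5 higher and 7 lower on both arrays and a median of -0.04. The ligand genes Nppa and Nppb were not well above background in any of the 4 channels. Ostn, whose product occupies the clearance receptor, was well above background in 1 channel and did not pass the filter. Prkg2, a cGMP-dependent protein kinase, was at 0.57 and 0.65 (mean 0.61 ± 0.0568, SD, n = 2; adjusted p = 0.197), and Gucy1a1, a subunit of the nitric oxide receptor, at 0.17 and 0.60 (adjusted p = 0.631). Prkg1, the kinase of smooth muscle, was at 0.16 and 0.13, but at -0.63 and -0.35 in the authors' deposited table, and the cGMP phosphodiesterase gene Pde5a was at -0.25 and 0.36. The processing enzyme genes Furin and Corin were at means of -0.11 and -0.17, and Mme, neprilysin, which degrades natriuretic peptides, was at -0.14 and 0.05.

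Among Gq proteins and downstream effectors all 25 were tested, 0 passed and the median was 0.04. Rgs4, which speeds the shutdown of Gq and Gi proteins, was at -1.39 and -1.01 (mean -1.20 ± 0.265, SD, n = 2; adjusted p = 0.0677), and its other probe at -0.98 and -0.65. Plcb1, the phospholipase that Gq activates, was at 0.54 and 1.05 (mean 0.80 ± 0.364, SD, n = 2; adjusted p = 0.211), and its other probes at 0.39 and 0.57 and at 0.18 and 0.36. Of 42 other receptor genes for contractile or relaxing ligands, 31 were tested, 0 passed and the median was -0.04. On both arrays 6 were higher and 14 lower, with no share by direction over all genes to set beside them. The muscarinic receptor gene Chrm3, 1 of the 14 lower, was not well above background in either Gata2cKO channel, so its ratio is not given. Ramp1, a partner of the CGRP receptor, was at -0.32 and -0.53 (adjusted p = 0.412), with a further Ramp1 probe at 0.06 and -0.25. Rgs4 passed by limma with Agilent's processed signals (adjusted p = 0.0118), with an offset of 0 (0.0468) and without a filter on detection (0.0419). It also passed with a trended and robust variance (0.000107), and its adjusted p ranged from 0.000107 to 0.793. Under these settings, in the same order, 173, 47, 54 and 375 of all genes passed, against 18 as reported.

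**Figure D3:**
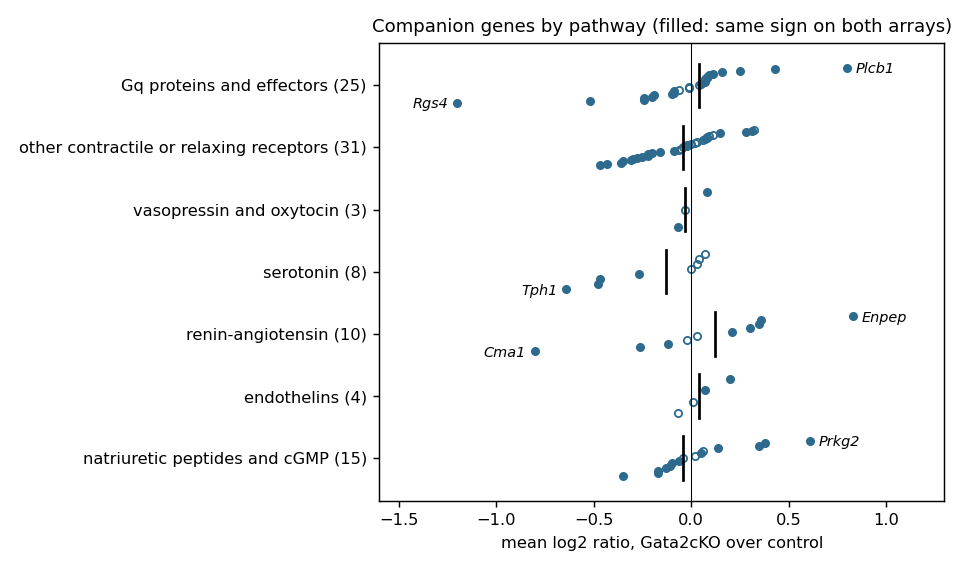
Mean log2 ratio of Gata2cKO over control (horizontal axis) for the 96 tested genes of 7 pathway lists (vertical axis, number tested in brackets), filled where both arrays had the same sign, with a black bar at each list's median. Rgs4 at -1.20 and Cma1 at -0.80 lie farthest to the left and Enpep at 0.83 and Plcb1 at 0.80 farthest to the right, while the medians lie between -0.13 and 0.12.

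Markers of the cell types a ureter can hold were read beside these genes. Of all genes tested, 53.2% had the same sign on both arrays, in either direction. The share by direction is not given. Smooth muscle markers were lower on both arrays for 8 of 10 tested, with 0 passing and Lmod1 not well above background. The summed level of their probes was 77799 and 82378 in the controls and 59718 and 56465 in the Gata2cKO RNA. Such a sum is led by the brightest probes and does not measure a number of cells. Myh11, the smooth muscle myosin gene, was at -1.05 and -1.21 (adjusted p = 0.0509 by limma). Neuron and glia markers were lower on both arrays for 9 of 11, with 1 passing, the neuronal filament gene Prph, which fell (-1.38 and -1.32, adjusted p = 0.0381 by limma). Their summed level was 37788 and 27973 in the controls and 18038 and 17339 in the Gata2cKO RNA.

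Beside Ednrb, the glial regulator Sox10 was at -0.72 and -0.53, but the glial receptor gene Erbb3 (-0.03 and 0.25) differed in sign between the arrays. Endothelial markers were lower on both arrays for 4 of 9 and higher for 1, with a median of -0.05 and summed levels of 94399.6 and 88994 in the controls and 86238 and 89872 in the Gata2cKO RNA. Pericyte markers had a median of 0.07 over 6 genes and nephron progenitor and kidney markers 0.06 over 5, with Umod and Nphs1 not well above background. Macrophage markers were lower on both arrays for 7 of 8 (summed levels 40093 and 37758 against 30162 and 31633), and those of urothelium higher for 6 of 10 and lower for 0 (102575 and 130814 against 120359 and 139177). Of the ureteric mesenchyme markers, 4 of 9 were higher and 2 lower on both arrays (251234 and 223014 against 247784 and 260543). The part of these cell types in the ratios of the receptor and peptide genes was not tested.

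**Figure D4:**
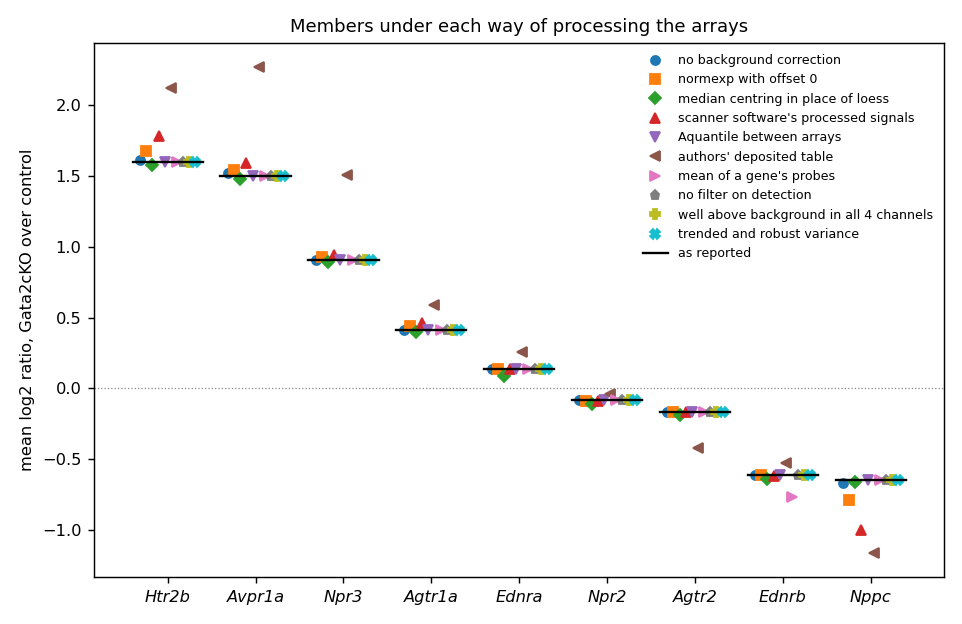
Mean log2 ratio (vertical axis) of the 9 detected genes (horizontal axis) under 10 other ways of processing the arrays (symbols), with a black bar at the value reported. All symbols keep the sign of the bar; the authors' deposited table lies farthest out for Htr2b (2.12), Avpr1a (2.27), Npr3 (1.51) and Nppc (-1.16).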

How the data were processed

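Both arrays are 2-colour Agilent arrays of design 026655. Per the file headers, the authors read them with Agilent Feature Extraction 10.7.3.1 (protocol GE2_107_Sep09, probe coordinates on mm9), and the deposited scanner files hold mean spot signal and local background as intensity, processed signals (background-subtracted, detrended, dye-normalized) and a log10 ratio (red to green). The authors' deposited value table was read as a signed fold, a score; how it was made is not stated in the sources used here. It correlated with the scanner's red over green ratios at 0.361 and -0.276, which set its direction, had a median of 1 and was an alternative alone, as log2 of the fold.

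Background was corrected by normexp (offset 50), ratios were loess-normalized within arrays (span 0.3, control and outlier spots at weight 0; 255 and 178 outlier spots left out) and array 2 was turned. Probes well above background in both control or both Gata2cKO channels were kept (25658), and each gene took its brightest probe. Accessions were matched to RefSeq (GRCm38.p6) names for 26412 probes; the other 13017 kept the file's name. No mm9 annotation was used here, so exons were not assigned. Channel levels are log2 values after loess and Aquantile. A ratio of 0 was the null in limma 3.58.1 (R 4.3.3; lmFit, then eBayes; two-sided, Benjamini-Hochberg over all genes, threshold 0.05; 1 residual degree of freedom, prior of 4.68 with SD 0.163); the functions were tested on simulated data. The number of arrays limits the precision.

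The members and lists were chosen with earlier results of these data known. All members are named. From the lists were named any gene past the threshold, the 2 with the largest mean ratio of one sign on both arrays, and the ligands and enzymes of the receptors, some of which are not reported here; genes beyond these (Slc6a4, Htr2a, Htr2c, Oxtr, Agtr1b, Prkg1, Pde5a and the markers) were named after their values were seen. Alternatives were the background correction, the normalization, the deposited table, the probe rule, the filter, the variance prior and leaving out an array.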

Additional observations from a re-analysis of the deposited data

Results flagged for a closer look

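Ednra had opposite signs on the arrays of the different sexes, at -0.02 on array 1 (female) and 0.31 on array 2 (male), a difference of -0.34. Each sex was on 1 array with its own dye orientation, so the difference was not tested, and sex cannot be told apart from dye orientation. With median centring in place of loess the values were 0.29 on array 1 and -0.10 on array 2, so the direction of the difference turned. The arrays had the same sign for Ednra under 2 of 10 alternatives.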

How the results depend on the processing

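All 9 detected members kept the sign of their mean log2 ratio under 10 of 10 alternatives each. On array 2 alone and array 1 alone the values were 1.74 and 1.45 for Htr2b, 1.70 and 1.31 for Avpr1a, 0.98 and 0.84 for Npr3 and -0.68 and -0.63 for Nppc, and Ednra, with 0.31 and -0.02, changed sign without replicate 2. Over the alternatives Htr2b ranged from 1.58 to 2.12, Avpr1a from 1.48 to 2.27, Npr3 from 0.89 to 1.51, Nppc from -1.16 to -0.65 and Ednrb from -0.77 to -0.53. The count of all genes past an adjusted p of 0.05 by limma, 18, was 3 with no background correction, 47 with an offset of 0, 0 with median centring (492 at an unadjusted p under 0.05), 173 with the scanner software's processed signals, 0 in the authors' deposited table (972 unadjusted), 54 with no filter, 35 with all 4 channels well above background and 375 with a trended and robust variance. The count of listed pathway genes, 0, was 1 with an offset of 0, 4 with processed signals, 1 with no filter and 7 with a trended and robust variance (Chrm3, Enpep, Htr3a, Plcb1, Prkg2, Rgs4 and Tph1), of which Chrm3 was tested through its control channels alone and dropped out when all 4 channels were required. Over the alternatives Cma1 ranged from -2.23 to -0.80, and the means of Ace, Ece1, Edn1, Furin, Kel, Maob, Mme, Oxt, Pde5a and Prkg1 changed sign under at least 1. The mean of Corin was 0.00 in the deposited table. The split of genes at least 1.5-fold on both arrays, 56 higher and 90 lower, was 209 and 184 in the deposited table. Why these values moved was not tested. With 1 array left no test could be run. Nppc and Npr1 lie nearest to background.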
